A study of Mus musculus with 12 samples.

Results

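S phase wells are single epidermal cells, each sorted into its own well, whose ribosome footprints came to an unusual degree from the mRNAs of replication-dependent histones. A well was taken when it held at least 100 counts in all, and at least 5 counts that made up at least 1% of its total over the 55 genes with the symbols H1f1 to H1f5, H2ac, H2bc, H3c and H4c followed by a number. Of 1924 wells on the young and old plates, 1906 had at least 100 counts and 66 of these were S phase wells, which left 1840 other wells. The wells were thus chosen by their histone counts, and the values of these genes are given as a description and without a test.

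Ribosome footprints, the pieces of mRNA that a ribosome covers, were counted per gene in cells from the back skin of female C57BL/6 mice. Young mice were 56 to 60 days old and old mice 22 to 26 months old, with 3 animals per age, and the age was the study's contrast. Every animal had received cycloheximide, which stalls ribosomes on their mRNAs, in the tail vein 2 min before death. The skin was kept in buffer with 10 mg/ml cycloheximide, and the cells were freed with trypsin for 37 min and sorted alive into 384-well plates. The labels do not tie plates to animals, and it was assumed that plates with equal age and postnatal day came from a single animal. This gave the young animals P57 (1 plate), P59 (1 plate) and P60 (3 plates) and the old animals P662 (2 plates), P722 (1 plate) and P758 (2 plates). A kept well had a median of 1352 counts in P60 and 865 in P758 but 219 in P662, 347 in P722, 298 in P57 and 168 in P59. The P60 and P758 plates carried 63 of the 66 S phase wells, and all tests between kinds of wells rest on these 2 animals. The footprints stand without mRNA counts of the same cells, so how much mRNA there was and how well it was translated cannot be told apart. Between plates of the same animal the summed counts differed by 2.19 to 3.73 times counting noise (chi-square per degree of freedom), so no plate repeated another. Of 384 cell indices 383 occurred on more than 1 plate, since the plates share 1 set of indices, and 267 pairs of wells with the same index held an S phase well, 4 of them on both sides.

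A dividing cell copies its DNA in S phase and must wrap the new copy in nucleosomes, each a core of H2A, H2B, H3 and H4 with linker histone H1 beside it. The replication-dependent histone genes lie in clusters, lack introns, and give mRNAs that end in a stem-loop in place of a poly(A) tail, bound by the protein SLBP, and these mRNAs are made and kept mainly while DNA is being copied. In the epidermis division takes place mostly in the basal layer, whose cells make keratins 5 and 14. Cells that leave it stop dividing and make keratins 1 and 10.

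The promoters of the genes that marked these wells show what the histone classes share and where they part from the replication genes that rose beside them. RefSeq's table for GRCm38.p6 held a window from 250 bases before to 50 bases after the annotated start for 50 of the 55 genes. The 130 bases before the start follow for the leading histone gene or a marker of each class, for Mcm6, a subunit of the replicative helicase, and for Top2a, a topoisomerase of G2 and mitosis. Capitals mark, on either strand, CCAAT (read ATTGG on the other strand), the TATA box TATAAA, the octamer ATTTGCAT of H2B promoters, the H1 box AAACACA, the H4 element GGTCCG, the relaxed E2F site TTTNNCGC and the cell cycle homology core TTTGAA (read TTCAAA). H1f5 is at chr13:21779832-21780625 and its sequence is from chr13:21780626-21780755, minus strand. H2ac10 is at chr13:23533875-23534378 (sequence chr13:23533745-23533874, plus strand). H2bc3 is at chr13:23746734-23747223 (sequence chr13:23746604-23746733, plus strand). H3c2 is at chr13:23752345-23752840 (sequence chr13:23752215-23752344, plus strand). H4c4 is at chr13:23581568-23581969 (sequence chr13:23581438-23581567, plus strand). The Mcm6 sequence is chr1:128359706-128359835 and that of Top2a chr11:99024190-99024319, both on the minus strand. The start that RefSeq's promoter table uses for Top2a lies a few bases inside the gene's span. TATAAA lies at -28 to -23 from the start in H1f5, -29 to -24 in H3c2 and -32 to -27 in H4c4. In H2bc3 it lies at -10 to -5, so the capitals there mark the letters alone and not the usual place of a TATA box.
H1f5: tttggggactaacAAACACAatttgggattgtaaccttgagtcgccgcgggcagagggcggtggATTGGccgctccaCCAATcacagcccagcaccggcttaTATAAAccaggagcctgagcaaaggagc
H2ac10: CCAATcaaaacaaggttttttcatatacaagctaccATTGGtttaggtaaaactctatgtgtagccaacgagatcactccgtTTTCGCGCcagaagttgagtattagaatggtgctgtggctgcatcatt
H2bc3: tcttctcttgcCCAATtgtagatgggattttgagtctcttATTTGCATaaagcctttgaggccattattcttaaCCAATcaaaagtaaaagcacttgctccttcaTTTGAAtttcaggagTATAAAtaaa
H3c2: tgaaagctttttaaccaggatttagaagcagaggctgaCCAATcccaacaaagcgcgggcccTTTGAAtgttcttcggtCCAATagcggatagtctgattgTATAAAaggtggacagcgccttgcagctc
H4c4: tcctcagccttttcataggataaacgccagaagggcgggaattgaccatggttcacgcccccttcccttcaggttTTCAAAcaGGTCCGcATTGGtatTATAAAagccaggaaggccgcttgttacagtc
Mcm6: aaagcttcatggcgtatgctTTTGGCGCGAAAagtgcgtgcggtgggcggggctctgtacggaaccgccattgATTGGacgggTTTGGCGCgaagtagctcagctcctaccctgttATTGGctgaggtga
Top2a: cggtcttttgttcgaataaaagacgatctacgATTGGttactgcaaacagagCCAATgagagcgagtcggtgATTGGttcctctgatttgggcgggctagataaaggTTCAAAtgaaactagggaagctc

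CCAAT was in the windows of 88.0% of the 50 histone genes (44 genes) against 37.9% of all 27025 windows. It was in every window of the H1, H2A, H2B and H3 genes but in 3 of 9 H4 windows (33.3%). TATAAA was in 60.0% of the histone windows and 14.2% of all windows. The other elements followed the classes. ATTTGCAT was in 6 of 14 H2A and 6 of 12 H2B windows, in none of the other histone windows and in 1.75% of all windows. AAACACA was in 4 of 5 H1 windows and 7.14% of all windows, and GGTCCG in 8 of 9 H4 windows and 8.39% of all windows. TTTGAA was in 42.0% of the histone windows and 18.1% of all windows, and in 9 of 12 H2B windows against 1 of 9 of H4. Some H2A and H2B genes stand back to back and share part of their windows, so these counts are not independent. Among the genes that were higher in S phase wells by the test described further on, which excluded the histone genes of the rule, 435 had a window. CCAAT was in 58.4% of these and in 38.6% of the windows of all tested genes. TTTNNCGC was in 17.2% of the higher and 9.68% of the tested genes, and in 10 of 19 windows of licensing and helicase genes. TTTGAA was in 30.3% of the higher and 11.6% of the tested genes, and in 37 of 47 windows of G2 and mitosis genes against 2 of 28 of replication fork genes. TATAAA, in contrast, was in 6.44% of the higher and 6.29% of the tested genes. A match is a description of the letters and was not tested as a binding site.

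The wells spread widely around the threshold. Of all kept wells, 713 had a histone share under 0.1% and the median of the other wells was 0.152%, while the S phase wells ran from 1.01% to 36.2% with a median of 7.0%. Just inside the threshold lay wells at 1.01, 1.03, 1.05, 1.08 and 1.09%, and just outside it wells at 0.897, 0.903, 0.913, 0.927 and 0.979%. A further 42 wells had at least 1% but fewer than 5 histone counts, and 416 had at least 5 counts but under 1%. The shares then left a gap: 24 members lay between 1.01 and 3.19% and 42 between 4.78 and 36.2%. This gap was seen in the data, and 4% is used here to part the low from the high members.

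The high members were cycling cells by genes that the rule had not used, and most low members were not shown to be. Mki67, whose protein coats mitotic chromosomes and marks cycling cells, had a count in 41 of 42 high and 7 of 24 low members. Top2a, which untangles copied DNA, had a count in 40 of 42 high members, and 16 of 24 low members had neither gene. Over 54 genes of G2 and mitosis the pooled share of the non-histone counts was 5.07% in high members, 1.03% in low members and 0.277% in other wells. Over genes of replication licensing and the fork it was 0.910%, 0.704% and 0.242%. A few wells carried the values of the low members. In the mitosis list 5 of them held 192 of 228 counts and the other 19 had 0.247%, and in the replication lists 3 held 105 of 156 counts and the other 21 had 0.313%. A low member had a median of 825 counts, against 2792.5 for a high one, so that a single count weighs more there. All 42 high members and 9 of 24 low members had a count of at least 1 of the marker genes H2ac10, H1f5, H2bc3 and H3c2. Mki67, Top2a and the mitosis list mark cycling cells and not S phase as such, and all 42 high members also met the threshold used for G2 and mitosis wells. The label S phase therefore rests on the histones of the rule and on the replication genes, which are set against G2 and mitosis wells at the end. For 16 low members no count of Mki67 or Top2a bears on it at this depth. The 3 low members rich in replication genes had 29 of 1488, 30 of 1907 and 46 of 2640 counts in the licensing and fork lists.

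**Figure D1:**
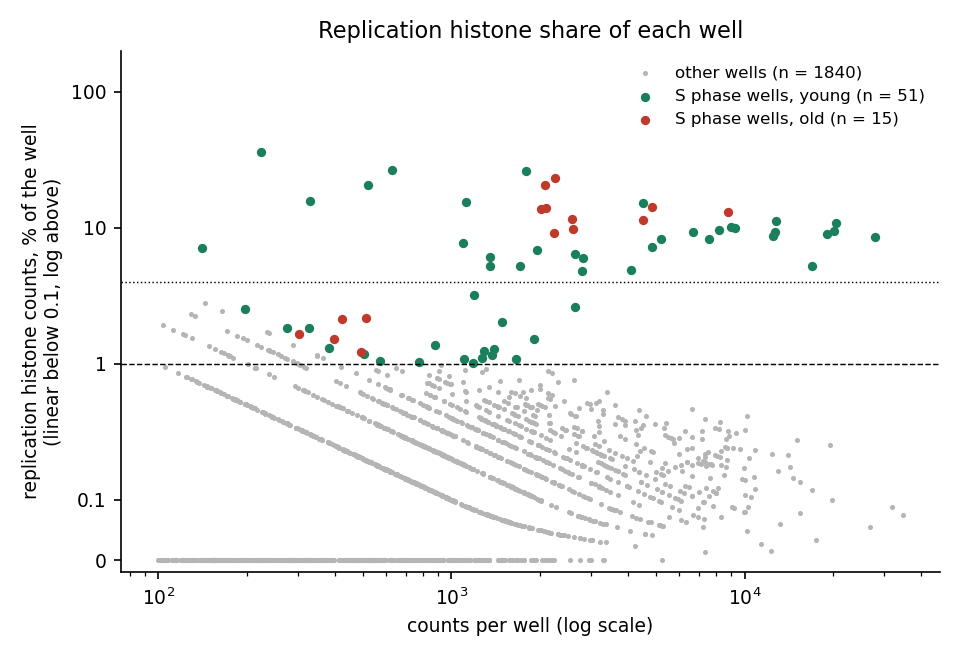
Histone share of each of the 1906 kept wells (vertical axis, percent of the well's counts, linear below 0.1 and logarithmic above) against its total counts (horizontal axis, logarithmic), with S phase wells coloured by age. The 66 S phase wells run from 1.01% to 36.2%, and the gap between 3.19% and 4.78% parts 24 low from 42 high members.

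Among the high members of P60 the shares of replication and mitosis genes ran against each other on 2 of 3 plates. In P60, over 27 high members of at least 1000 counts, the share of licensing and fork genes and that of G2 and mitosis genes had a Spearman rho of -0.501 (Pearson r -0.688). In P758, over 10 such wells, rho was 0.115 and r was -0.236. Within plates rho was -0.964 on Young1 (7 wells), -0.699 on Young3 (12 wells) and 0.524 on Young9 (8 wells) of P60, and 0.0857 on Old2 of P758 (6 wells). These are descriptions across wells of the same animal, whose 2 shares are taken of a common total, and no p is given. The histone share had a rho of 0.168 with the replication share and -0.132 with the mitosis share in P60.

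**Figure D2:**
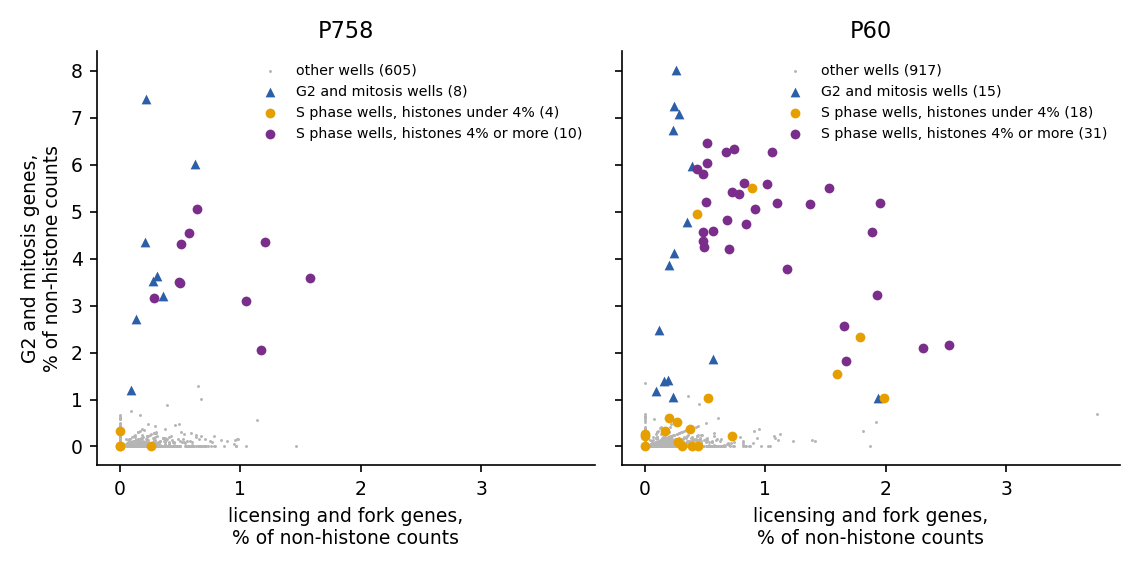
G2 and mitosis genes (vertical axis) against licensing and fork genes (horizontal axis), each as percent of the non-histone counts of a well, for P758 and P60, with S phase wells, G2 and mitosis wells and other wells in different marks. High S phase wells reach mitosis shares between 1.82% and 6.46%, far above the pooled 0.277% of other wells.

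S phase wells made up 4.99% of the kept wells in P60 (49 of 981, exact Clopper-Pearson 95% interval 3.72 to 6.55%) and 2.23% in P758 (14 of 627, 1.23 to 3.72%). The thinner animals gave 2 of 48 wells in P59 (4.17%, 0.509 to 14.3%) and 1 of 199 in P662 (0.503%, 0.0127 to 2.77%). P722 had 0 of 38 wells (0 to 9.25%) and P57 0 of 13 (0 to 24.7%). The interval of P60 lay above that of P662 and met that of P758 at 3.72%, and all other pairs overlapped. On the 3 plates of P60 the share was 6.01, 4.91 and 4.04%, and on the 2 plates of P758 it was 3.42 and 1.19%. Every P60 plate was thus above both P758 plates, but 1 animal stands on each side.

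Averaged over animals, the share was 0.912 ± 1.17% in old and 3.05 ± 2.68% in young mice (SD, n = 3 each), a difference of -2.14 percentage points. In a two-sided exact permutation test this gave p = 0.4, where 3 against 3 cannot go below 0.1, so no difference with age beyond the spread between animals was shown. With at least 3 in place of 5 histone counts the difference was -5.86 points and the exact test gave p = 0.1, the smallest it allows. The share of all counts that came from replication histones was 0.299 ± 0.343% in old and 0.567 ± 0.430% in young animals, with p = 0.5 by the same exact test. With P60 and P758 wells of at least 500 counts thinned to 500 counts each, the shares of S phase wells were 6.57% and 3.81%. Intervals and floors cover counting error only.

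The few S phase wells held most of the histone footprints of their animals. In P60, where they were 4.99% of the wells, they carried 82.9% of all counts of the replication histone genes, and in P758, at 2.23% of the wells, 74.7%. Histones made up 8.56% of all counts in the S phase wells of P60 and 13.0% in those of P758, against 0.199% and 0.183% in the other wells. Their median well had 1711 counts in P60 and 2170 in P758, while other wells had 1344 and 860.

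Of the 55 genes, 45 lie on chromosome 13 and 10 on chromosome 3. In S phase wells 51 had a count and 44 had at least 100, and of these 44 all but H4c14 had over 50% of their own counts in S phase wells. H2ac18, H2ac19, H3c14 and H2ac1 had no count there. Histone genes of a class are nearly identical in places, so reads may have been split or dropped between them when they were counted, and single genes are uncertain where their class is not.

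The sharpest markers were nearly silent outside the S phase wells. H2ac10, a core histone H2A gene, had 942 counts over 42 S phase wells and 5 counts over 4 of the other wells. Its level was 3273 CPM (counts per 1000000 counts, over all genes) in S phase wells and 1.87 CPM in other wells of P60, and 4282 and 1.16 CPM in P758. H1f5, a linker histone, had 1078 counts against 43, with 3642 and 17.3 CPM in P60 and 5570 and 6.97 CPM in P758, a ratio of 211 and 799. H2bc3, a core H2B gene, had 932 counts against 42, and H3c2, a core H3 gene, 473 against 8. In all, 16 of the genes with at least 100 counts in S phase wells had fewer than 20 in the far more numerous other wells.

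Other histone genes were also read outside the S phase wells. H4c4 had 1682 counts in S phase and 825 in other wells, with 5595 and 269 CPM in P60 and 9264 and 258 CPM in P758. H2bc18, on chromosome 3, was the most counted of all, with 1780 counts in S phase and 448 in other wells. H4c14, also on chromosome 3, had 779 against 834 counts and a ratio of 10.2 in P60 and 11.4 in P758, the lowest ratio among the genes with at least 100 counts in S phase wells for which both animals gave one. The linker histone H1f2 had a ratio of 17.2 and 19.2 and H1f4 of 16.1 and 24.6. H2bc21 had 1 count in S phase and 25 in other wells, too few to show a direction. In P60 it had 4.15 CPM (counting interval 0.105 to 23.1) in S phase and 8.87 CPM (5.34 to 13.8) in other wells. In P758 it had no count in S phase wells, which allows up to 103 CPM, and 5.81 CPM in other wells.

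**Figure D3:**
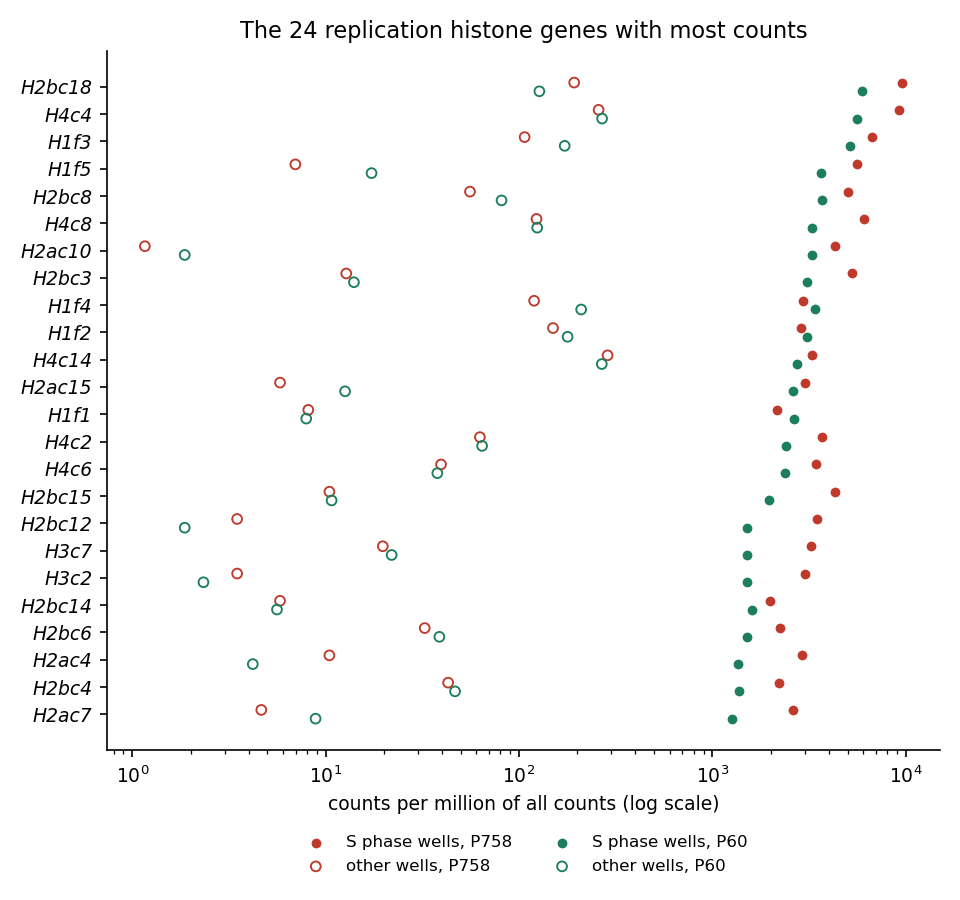
Levels of the 24 replication histone genes with most counts (vertical axis) in CPM of all counts (horizontal axis, logarithmic), filled marks for S phase wells and open marks for other wells, by animal. H4c4 at 269 CPM and H4c14 at 268 CPM in other wells of P60 stand well to the right of H2ac10 at 1.87 CPM, while in S phase wells all lie far higher.

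The make-up of the histone footprints therefore differed between S phase and other wells. In S phase wells H2B gave 27.9% of the histone counts in P60 and 30.2% in P758, H4 22.3% in both, H1 20.8 and 15.5%, H2A 16.03 and 17.1% and H3 12.8 and 14.9%. In other wells H4 gave 42.7% in P60 and 47.7% in P758, H1 29.4 and 21.4%, H2B 17.7 and 20.6%, H2A 5.16 and 4.25% and H3 5.09 and 6.09%. H4 and H1 thus weighed more in other wells than in S phase wells, and H2A, H2B and H3 less. As CPM per kilobase of gene span, the summed level in S phase wells of P60 was 46722 for H4, 43761 for H2B, 27190 for H2A, 23281 for H1 and 19820 for H3. The annotated spans of H2bc6 and H2bc4 are 37455 and 8282 bases, against a median of 486.5 for H2B genes. Their 1502 and 1377 CPM in P60 thus add little, and the order of H4 and H2B there depends on these spans. In CPM per kilobase H1 stood behind H4 alone in other wells of P60, at 768 against 2109, and behind H4, H2B and H2A in S phase wells. In P758 the order differed, with H1 at 517 behind H4 at 2161 and H2B at 618 in other wells, and last at 26263 in S phase wells, where H2B stood at 72361 and H4 at 70292. Over the 35 S phase wells with at least 100 histone counts, the H1 share ran from 6.31 to 34.7% with an SD of 6.54 points, where counting alone would give 2.14. The SD was 3.59 points for H2A, 3.68 for H2B, 3.02 for H3 and 4.27 for H4, against 1.96, 2.46, 1.85 and 2.20 from counting.

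Several replication histone genes carry symbols that the rule did not list, and they behaved like the listed ones. H4f16 had 551 counts in S phase and 278 in other wells, H2aw 557 and 172, and Hist1h2an 183 and 7. Since they belong to the class that chose the wells, and share sequence with it, they are no independent evidence.

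For all other genes the counts of the wells were summed per animal and class, without the 55 histone genes, and S phase wells were set against other wells within P60 and P758 with edgeR's quasi-likelihood test. From here on CPM is taken over the non-histone counts, and the log2 differences are S phase over other wells. The S phase sums held 220450 counts in P60 and 31074 in P758, so that 3 counts are worth 13.6 CPM and 96.5 CPM there. Of 7725 tested genes 924 passed at an adjusted p of 0.05 (12.0%), 527 higher (6.82%) and 397 lower (5.14%) in S phase wells, and the median log2 difference of all tested genes was -0.11. Among the higher genes 517 were higher in both animals, and among the lower ones 392 were lower in both. In the S phase wells of P758, 196 of the 397 lower genes had no count. The p-values rest on 2 animals of different age with 1 residual degree of freedom and a spread pooled over genes. DESeq2 called 287 of the 7725, all of them among the 924, with 245 higher and 42 lower. The plates of P758 alone gave 200 calls among 4635 tested genes, 121 higher and 79 lower. Without a filter on low counts 384 of 15768 genes were higher and 237 lower. The counts of each list below stand beside these shares of all tested genes. Of the called genes named by rule, 68 kept their call with DESeq2 and 45 did not, among them Mcm6, Krt14, Dst, H3f3b, Klf4 and Thy1.

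All 54 tested genes of G2 and mitosis rose in S phase wells, with a median log2 difference of 4.06, against 6.82% of all tested genes. Together they took 4.92% of the non-histone counts in S phase wells and 0.297% in other wells of P60, and 3.58% and 0.245% in P758. The list gave 53 calls with DESeq2, 54 within basal keratin wells alone and 42 of 45 on the plates of P758 alone.

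Mki67 (chr7:135689784-135716450) had 6295, 6643 and 6668 CPM in the S phase wells of the 3 P60 plates and 2393 and 6383 CPM on the 2 P758 plates. In the other wells of the same plates it had 477, 265 and 98.1 CPM, and 192 and 289 CPM. The 2 sets did not overlap on any plate, and the log2 difference was 4.13 (SE 0.332, adjusted p = 1.27e-32 in edgeR). Top2a (chr11:98992947-99024199) had 6480, 6390 and 5075 CPM in S phase wells of P60 and 3444 and 5020 CPM in P758, against 459, 191, 62.9, 171 and 204 CPM in other wells. Its log2 difference was 4.39 (SE 0.335). The condensin subunit gene Ncaph differed by 5.34, the kinetochore gene Nuf2 by 5.48, the spindle motor gene Kif11 by 4.62 and Anln, which codes for the cleavage furrow protein anillin, by 3.93. Ccnb1, the mitotic cyclin, differed by 3.67 and its kinase Cdk1 by 4.13.

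Genes that license origins and unwind DNA rose with a smaller difference. Of 20 tested licensing and helicase genes 14 were higher (70.0%, against 6.82% of all tested genes) and 0 lower in S phase wells. Their median log2 difference was 1.87. Their summed share of non-histone counts was 0.284% against 0.0892% in P60 and 0.270% against 0.0716% in P758. The helicase gene Mcm6 (chr1:128331575-128359705) had 208, 487 and 185 CPM in S phase wells on the P60 plates and 175 and 430 CPM on the P758 plates. In the other wells it had 144, 114 and 98.1 CPM, and 98.7 and 105 CPM. The lowest S phase value stood above the highest other value, with a log2 difference of 1.46 (SE 0.380, adjusted p = 0.00203 in edgeR). The S phase values on the P758 plates rest on 9 counts in all, and the S phase sum of Old2 held only 17131 counts. The other helicase genes rose by 1.43 (Mcm4), 1.54 (Mcm2), 2.09 (Mcm7), 2.15 (Mcm3) and 2.81 (Mcm5) on the log2 scale. Mcm10, which helps to fire the helicase, had 22 counts in S phase and 3 in other wells of P60 and 3 and 2 counts in P758, a log2 difference of 5.81. Cdc45, a part of the active helicase, differed by 3.62. Dbf4 and Cdc7, the 2 parts of the kinase that fires origins, differed by 3.66 and 3.67. Gmnn, whose product geminin blocks relicensing, differed by 3.40. DESeq2 called 6 of the 20, and on the plates of P758 alone 3 of the 10 tested passed. Some genes with few counts in other wells, such as Mcm10, passed the filter on low counts only through their S phase level. The fraction called in a list can thus be raised by the filter. Without it 11 of 24 licensing and helicase genes were higher.

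At the fork 25 of 33 tested genes were higher (75.8%, against 6.82% of all tested genes) and 0 lower. Their median log2 difference was 2.22. Their share of the non-histone counts was 0.619% in S phase and 0.162% in other wells of P60, and 0.566% and 0.150% in P758. Pcna, the sliding clamp of the DNA polymerases, had 163 CPM in S phase and 43.0 CPM in other wells of P60, and 225 and 27.9 CPM in P758 (log2 difference 2.22, SE 0.442, adjusted p = 1.3e-05 in edgeR). Pole, the leading-strand polymerase, had 295 against 30.4 CPM in P60 and 290 against 29.1 CPM in P758, a difference of 3.28. Clspn, a checkpoint adaptor at the fork, had the largest difference of the list at 5.32. Uhrf1, which brings the maintenance methyltransferase to copied DNA, differed by 3.97. The fork protection genes Brca1 and Brca2 differed by 4.20 and 3.02. With DESeq2 15 of the 33 passed, and 8 of 21 on the plates of P758 alone. Without the filter on low counts 19 of 35 fork genes were higher.

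Nucleotide supply was split. Of 21 tested genes 8 were higher (38.1%, against 6.82% of all tested genes) and 0 lower, with a median of 1.05. The genes for making deoxynucleotides led the list. Rrm1, the large subunit of ribonucleotide reductase (chr7:102441695-102469771), had 1337, 1649 and 1000.2 CPM in S phase wells of the P60 plates and 1051 and 932 CPM on the P758 plates. In other wells it had 183, 140 and 123 CPM, and 113 and 132 CPM. The values stood apart on all 5 plates, with a log2 difference of 3.08 (SE 0.328, adjusted p = 7.76e-19 in edgeR). Rrm2, its small subunit, had 70 counts in S phase and 16 in other wells of P60 and 6 and 7 counts in P758, a difference of 5.17. Tk1, Tyms and Dut, which make the thymidine nucleotides or keep uracil out, differed by 5.10, 3.16 and 2.92, and Mthfd2, a mitochondrial folate enzyme, by 4.67. The other 13 tested genes, most of them of purine and pyrimidine synthesis from the start, did not pass. DESeq2 called 6 of the 21, and without the filter on low counts 6 of 23 were higher. On the plates of P758 alone 1 of 10 passed, beside 200 of 4635 tested genes, at a median of 0.099.

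Histone handling rose in part. Of 16 tested genes for histone supply and chaperones 9 were higher (56.2%, against 6.82% of all tested genes) and 1 lower. Their median was 1.18. Slbp, which binds the stem-loop of histone mRNAs, had 154 CPM in S phase and 28.5 CPM in other wells of P60, and 161 and 25.6 CPM in P758, a log2 difference of 2.49 (SE 0.467, adjusted p = 2.6e-06 in edgeR). Asf1b, an H3-H4 chaperone, differed by 4.94 and Chaf1a, the large subunit of the assembly factor at the fork, by 3.42. The acetyltransferase gene Hat1 differed by 1.78 and the histone-binding gene Rbbp7 by 1.70. Nasp, an H1 and H3 chaperone, had a log2 difference of 0.74 and did not pass (adjusted p = 0.262 in edgeR). The lower gene was the importin gene Ipo4, named because it stood alone, with 1 count in S phase wells of P60 and none in P758. DESeq2 called 4 of the 16, and on the plates of P758 alone 0 of 13 passed. Without the filter on low counts 6 of 20 were higher and 1 lower.

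Histones listed as replication-independent, with H2ax counted among them, rose too, 6 of 8 tested, with a median of 1.98. H2ax, the H2A form that is phosphorylated at broken DNA (chr9:44334715-44336077), had 1764, 1668 and 1704 CPM in S phase wells of the P60 plates and 3269 and 2008 CPM on those of P758. In other wells it had 17.3, 7.33 and 7.54 CPM, and 14.5 and 13.6 CPM. It had a count in 42 of the 66 S phase wells and in 29 of the 1840 others, with a log2 difference of 7.29 (SE 0.387, adjusted p = 9.14e-74 in edgeR). H2ax mRNA is known to exist in a stem-loop form like that of the replication histones as well as in a polyadenylated form. Cenpa, the H3 of centromeres, differed by 4.35, H2az2 by 2.97, the linker H1f0 by 1.89 and H3f3b, which codes for H3.3, by 1.50. DESeq2 called 3 of the 8, and on the plates of P758 alone 4 of 6 passed.

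Among cyclins and regulators of G1 and S, 9 of 20 tested genes were higher (45.0%) and 3 lower (15.0%), against 6.82% and 5.14% of all tested genes. Ccna2, the cyclin of S phase and G2, had 1211, 1115 and 629.8 CPM in S phase wells of the P60 plates and 525 and 1578 CPM on those of P758, against 99.7, 33.0, 15.1, 17.4 and 31.1 CPM in other wells. No plate overlapped, and the log2 difference was 4.58 (SE 0.365, adjusted p = 5.56e-33 in edgeR). E2f7 and E2f8, repressors that switch off E2F targets, differed by 6.34 and 4.85, and Ccne2, a cyclin of the entry into S phase, by 3.95. The 3 lower genes, named because they were few, act earlier in the cycle. They were the cyclin D genes Ccnd1 and Ccnd2, at -2.74 and -2.12, and the growth regulator gene Myc at -2.28. None of the 3 was called by DESeq2, which called 6 of the 20, all higher. Without the filter on low counts 7 of 25 were higher and 3 lower. On the plates of P758 alone 1 of 12 was higher and 0 lower, at a median of -0.11, beside 121 and 79 of 4635 tested genes.

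Outside the lists the genes with the largest rise by the naming rule were mostly of the same kinds. Spag5, a spindle gene, differed by 5.63, Esco2, which builds cohesion between sister chromatids, by 5.60, and Cdca5, which protects that cohesion, by 5.49. Foxm1, a transcription factor of G2 genes, differed by 5.55 and Bard1, the partner of BRCA1, by 5.51. Kifc5b, a mitotic motor, had 8 counts in S phase and 2 in other wells of P60 and 4 and 1 in P758. The remaining ones were histone genes outside the rule's symbols, H2ax, E2f7, Mcm10 and Nuf2.

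**Figure D4:**
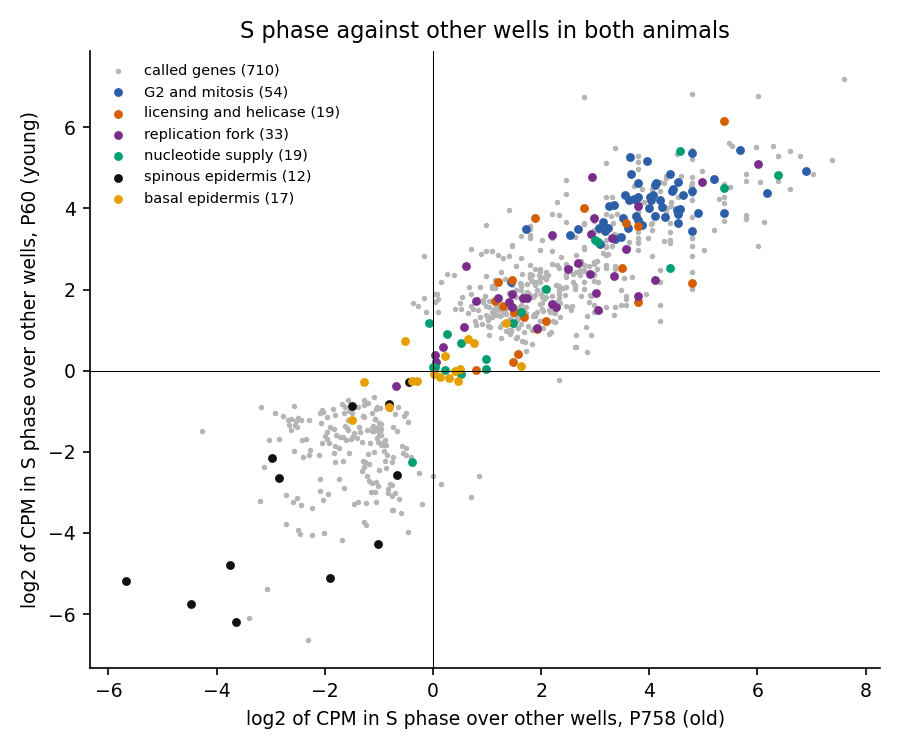
Log2 ratio of CPM in S phase over other wells in P60 (vertical axis) against P758 (horizontal axis) for the 710 called genes with a count in all 4 sums and for the members of 6 lists that have one. The 54 genes of G2 and mitosis lie at the upper right, the 33 fork and 19 licensing genes mostly between them and the centre, and the 12 spinous genes at the lower left.

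The keratins placed most S phase wells in the basal layer. Wells with more Krt5, Krt14 and Krt15 than Krt1 and Krt10 counts were 95.9% of S phase wells (47 of 49, Clopper-Pearson 86.0 to 99.5%) and 79.1% of other wells (737 of 932) in P60. In P758 they were 78.6% (11 of 14, 49.2 to 95.3%) and 68.5% (420 of 613). The mean difference was 13.4 percentage points, and an exact sign-flip test over 2 animals gives p = 0.5, the smallest it allows. With high members alone the difference was 24.6 points. Among all 42 high members 41 had more basal keratin counts, and none had over 2 counts of Krt1 and Krt10 together, while low members had up to 50.

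**Figure D5:**
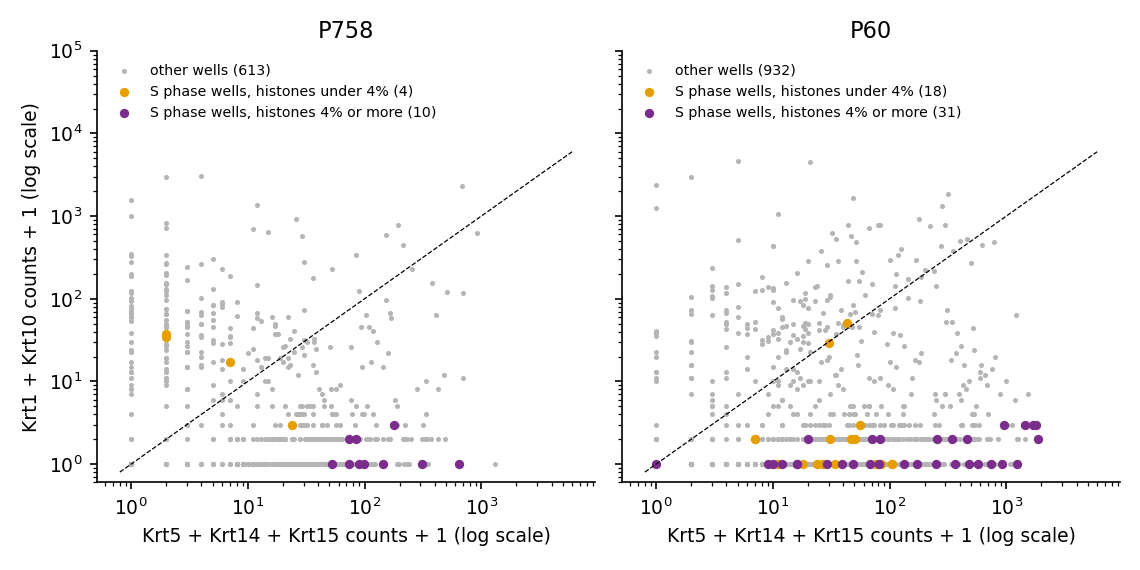
Counts of Krt1 and Krt10 (vertical axis) against those of Krt5, Krt14 and Krt15 (horizontal axis), each plus 1 and on a logarithmic scale, per well of P758 and P60. The high S phase wells lie along the bottom with at most 2 Krt1 and Krt10 counts, and low members reach 50.

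Of 17 tested genes of the basal layer 1 rose and 1 fell (5.88% each), near the 6.82% and 5.14% of all tested genes. Their median log2 difference was -0.02, near the -0.11 of all genes. Krt14, a basal keratin (chr11:100203162-100207510), had 18436, 16613 and 13040 CPM in S phase wells of the P60 plates and 22999 and 25891 CPM on the P758 plates. In other wells it had 7980, 7390 and 6567 CPM, and 9554 and 9468 CPM. It was higher in S phase wells on all 5 plates, with a log2 difference of 1.18 (SE 0.317, adjusted p = 0.00288 in edgeR). The call was lost with DESeq2 (adjusted p = 0.513), without the animal block (0.0809 in edgeR) and within basal keratin wells alone, where the difference was 0.72 (0.180 in edgeR). Its partner Krt5 had a log2 difference of 0.64 and did not pass (adjusted p = 0.229 in edgeR). Krt15, a keratin of basal and hair follicle stem cells, had a difference of -0.81 that did not pass (adjusted p = 0.0849 in edgeR), with 3057 against 7370 CPM in P758 and 14806 against 17932 CPM in P60. Within basal keratin wells alone it passed at -1.12 (adjusted p = 0.0176 in edgeR). Dst, which codes for the plakin BPAG1 of hemidesmosomes, fell by 1.39 on the log2 scale (SE 0.311), and its partner Col17a1 had a difference of -0.10. Dsp, the plakin of desmosomes, fell by 1.41 (SE 0.319, adjusted p = 0.00021 in edgeR), with 6142 against 12679 CPM in P60 and 4570 against 14329 CPM in P758.

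Genes of the spinous layer fell. Of 16 tested, 13 were lower and 0 higher, against 5.14% lower among all tested genes. Their median log2 difference was -3.65, or -2.95 with the genes without a count in S phase wells set at the floor of 3 counts. Their share of non-histone counts was 0.275% in S phase and 4.01% in other wells of P60, and 0.695% and 6.30% in P758. Krt10 (chr11:99385254-99397449) had 473, 56.2 and 37.0 CPM in S phase wells of the P60 plates and 3327 and 71.7 CPM on the P758 plates. In other wells it had 19347, 12654, 14296, 21342 and 24802 CPM. The plate Old2, with 4 low members, was the highest among S phase wells and still below every value of other wells. The log2 difference was -4.99 (SE 0.388, adjusted p = 1.28e-34 in edgeR). Krt1, its partner keratin, fell by 4.37, Krt77, a further spinous keratin, by 5.26 and Sbsn, a secreted suprabasal protein, by 5.24. Within basal keratin wells alone 8 of 13 tested spinous genes were still lower. DESeq2 called 8 of the 16, and on the plates of P758 alone 7 of 15 were lower.

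Granular and hair follicle genes followed. Of 7 tested granular genes 6 were lower (85.7%, against 5.14% of all tested genes), and DESeq2 called 1. Among the lower ones was Spink5, a protease inhibitor of the cornified layer, at -4.83. The list took 0.00544% of non-histone counts in S phase and 0.0461% in other wells of P60, and 0.0129% and 0.272% in P758, and on the plates of P758 alone 5 of 9 were lower. Of 11 upper hair follicle genes 6 were lower (54.5%, against 5.14% of all tested genes). Krt79, a keratin of the follicle's infundibulum, had 1 count in the S phase wells of P60 and none in those of P758, against 3829 and 763 counts in other wells. Of 9 outer bulge genes 4 were lower (44.4%) and of 6 sebaceous gland genes 3 (50.0%), and DESeq2 called 0 of both lists. The outer bulge list differed between the animals, with 0.0454% in S phase and 0.110% in other wells of P60 but 0.145% (0.106 to 0.194%) and 0.119% (0.112 to 0.127%) in P758. On the plates of P758 alone 2 of 8 upper follicle, 0 of 4 outer bulge and 1 of 4 sebaceous gland genes were lower. Among all 4635 genes tested there, 79 were lower.

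The 15 genes with the largest fall by the naming rule had no count in any S phase well of either animal. Against the floor of 3 counts, Krt78, a suprabasal keratin, was at least 11.7-fold lower in P60 and at least 3.03-fold lower in P758. Dsc1, a desmosomal cadherin of the upper layers, was at least 9.10-fold and 4.06-fold lower, and Acer1, an alkaline ceramidase of the upper epidermis, at least 10.5-fold and 1.82-fold. Grhl3, a transcription factor of barrier formation, was at least 7.42-fold lower in P60.

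Genes of other cell types had few counts in S phase wells, with a single exception. Of 8 tested T cell genes 6 were lower, and the genes of the T cell receptor complex Cd3g, Cd3e and Trdc and the leukocyte phosphatase gene Ptprc had no count in S phase wells of P60 and P758. In P60 this made them at least 7.39-fold (Cd3g), 5.53-fold (Cd3e), 3.88-fold (Trdc) and 5.29-fold (Ptprc) lower, while in P758 the floor lay above their level in other wells. DESeq2 called 3 of the 8. Thy1, a surface protein on the T cell list, rose by 1.34 on the log2 scale (SE 0.379, adjusted p = 0.00543 in edgeR), with 181 against 96.3 CPM in P60 and 451 against 101 CPM in P758. The whole T cell list took 0.0191% of non-histone counts in S phase and 0.0653% in other wells of P60, and 0.0515% and 0.0662% in P758. Genes of melanocytes and Merkel cells had 1 count and those of fibroblasts and vessels 2 in the S phase wells of P60, and none in those of P758.

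The exception was 1 high member on plate Old2, with 4519 counts and a histone share of 11.3%. It held 106 counts of Langerhans cell genes, among them 57 of Cd74, the invariant chain of MHC class II, and 4 of Cd207, which codes for langerin. It also held 178 counts of basal keratins, 5 of Mki67 and 10 of Top2a. This well alone gave the Langerhans list 0.348% of the non-histone counts in S phase wells of P758, against 0.0262% in other wells, while P60 had 0.000907% and 0.0374%. No Langerhans gene passed the test. Doublets were not called, and whether this well held more than 1 cell was not tested.

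In the lists of stress and of the ribosome few genes passed between S phase and other wells. Among all tested genes 6.82% were higher and 5.14% lower. Of 19 tested immediate early genes, which respond within minutes to handling of tissue, 1 was higher and 1 lower (5.26% each). This is near the shares of all tested genes, and the median was -0.08. The list took 0.414% of non-histone counts in S phase and 0.513% in other wells of P60, and 2.15% and 1.47% in P758. Ccn1, a matricellular gene, passed at a log2 difference of 1.00 (SE 0.333, adjusted p = 0.0270 in edgeR), yet had 177 against 206 CPM in P60 and 1899 against 378 CPM in P758, and the P60 plates alone gave -0.082. Klf4, a factor of differentiation, fell by 1.44. Of 16 tested heat shock and chaperone genes 0 passed with edgeR and with DESeq2, at a median of 0.08. Of 41 tested cytosolic ribosomal protein genes 1 was lower (Rpl13, without a count in S phase wells) and 0 higher, at a median of -0.06. Of 18 genes of the nucleolus and ribosome making Nop2, a methyltransferase of ribosomal RNA, was lower and 0 were higher, at a median of -0.28.

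The nearest other wells were those with the mitotic genes but without the histones. They had at least 5 counts and at least 1% of their counts in the G2 and mitosis list and were not S phase wells. There were 27, with 15 in P60 and 8 in P758, and their histone share ran from 0 to 1.15% with a median of 0.248%. Their pooled share of the mitosis list was 5.42%, beside 5.07% in the high S phase wells, and their share of licensing and fork genes 0.272%, beside 0.910%.

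S phase wells were set against them in the same 2 animals, without the genes of either rule. Of 1271 tested genes edgeR called 34 (2.68%), 25 higher (1.97%) and 9 lower (0.708%) in S phase wells. Replication histone genes under symbols outside the rule stayed in this test. Of these Hist1h2an, Hist1h4m, Hist1h4n, H4f16 and H2aw are counted among the 25 higher genes and are no independent evidence. Replication genes that the rules had not used were among the higher ones. In the licensing list 3 of 4 tested genes were higher, in the fork list 6 of 10 and in the nucleotide list 1 of 6. The filter on low counts left out most of these lists, which hold 24, 35 and 23 genes. Genes with few or no counts in G2 and mitosis wells, such as Rrm2, passed it only through their S phase level. These fractions can thus be raised by the filter, while the shares of all licensing and fork genes given above do not depend on it. Rrm2 had 70 counts in S phase and none in G2 and mitosis wells of P60 and 6 and none in P758, at least 9.79-fold and 2.08-fold higher. Pola1, the polymerase that makes primers, had 71 counts in S phase and 1 in G2 and mitosis wells of P60 and 10 and 1 in P758 (log2 difference 4.21, SE 0.745, adjusted p = 3.11e-06 in edgeR). Pole differed by 3.53, Mcm6 by 3.27, Lig1, the ligase that joins Okazaki fragments, by 2.73, Mcm5 by 2.44, Mcm4 by 2.09, Clspn by 1.95 and Dnmt1, the maintenance methyltransferase, by 1.76. H2ax, whose mRNA also has a stem-loop form like that of the rule's genes, differed by 4.05. It had 377 counts in S phase and 11 in G2 and mitosis wells of P60 and 84 and 4 in P758. The higher genes also held 2 of 13 tested immediate early genes. Junb had 415 CPM in S phase and 239 CPM in G2 and mitosis wells of P60 and 2804 and 804 CPM in P758 (log2 difference 1.33), and Egr1 differed by 1.03. Neither passed with DESeq2 or with high members alone. The histone genes H4f16, H2aw and Hist1h2an, of the class the rule used, stood even further apart.

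Ccna2 (log2 difference 0.10, adjusted p = 0.957 in edgeR), Krt14 (0.06, 0.984) and Krt5 (-0.36, 0.816) did not pass between S phase and G2 and mitosis wells. Rrm1 had a difference of 0.60 and did not pass (adjusted p = 0.420 in edgeR). Among the 9 lower genes were Epcam, an adhesion molecule, at -1.55, Krt15 at -1.45 and Mpp1, a membrane scaffold gene, at -1.59. Krt15 had 3171 CPM in S phase and 17011 CPM in G2 and mitosis wells of P758 and 15572 and 22979 CPM in P60. Cdc23, a subunit of the anaphase-promoting complex, was lower at -1.30 and Serpinb8, a protease inhibitor, at -1.29. The comparison is thin, and DESeq2 called only 4 genes, the histone genes H2aw, H4f16 and Hist1h4m and H2ax. With the high members of P60 and P758 alone (31 and 10 wells) edgeR called 16 genes, 15 higher and 1 lower, and Rrm2, Pola1, Pole, Mcm6, Lig1 and Dnmt1 were among those kept.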

How the data were processed

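The authors deposited, for each plate, whole-number counts of footprint reads per gene and cell index for 22416 genes. Per the submitters' processing notes the counts came from fastp, STAR, Bowtie2, featureCounts and UMI-tools on GRCm38.p6. Versions, settings, filters on wells and what was done with reads that match several histone copies were not given in the sources used here. Such reads can be lost or split.

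Wells under 100 counts were left out. The members and gene lists were chosen with earlier results of these data known. Counts were summed per animal and class for animals with at least 3 S phase wells (P60 and P758), and tested with edgeR 4.0.16 (R 4.3.3), with TMM factors, filterByExpr, the animal as a block and robust quasi-likelihood fits, and p-values were adjusted by Benjamini-Hochberg and called at 0.05. The SE was derived from the log2 difference and F, and the biological coefficient of variation was 0.177. The fitted log2 value of a gene without a count in a class is no bound, and folds for it were set against 3 counts. DESeq2 1.42.0, other filters, thresholds, well sets and units were alternatives. Shares were compared with exact permutation tests in scipy 1.17.1 (Python 3.11.15, numpy 2.4.6, pandas 2.3.3), and figures drawn with matplotlib 3.10.9.

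The named genes are, by rule, up to 15 called ones that rose most and 15 that fell most at 50 CPM or more in either class and with one direction in both animals, up to 6 per list by smallest p, the genes of the label, and up to 5 in each direction against G2 and mitosis wells. Further genes named from the latter test, and those said to be named because they were few, were chosen after their values were seen. On simulated counts for 7725 genes, 1.04% of 2-fold, 60.8% of 4-fold and 76.0% of 8-fold changes between S phase and other wells were recovered, with 0 calls when nothing was changed. For the 1271 genes against G2 and mitosis wells 44.5, 84.3 and 98.9% were recovered, with 12.0, 2.78 and 5.41% of the calls false. Both sets of counts were drawn with the spread that edgeR had fitted and without a difference between animals. They therefore cannot tell whether that spread is right. Doublets were not called, as wells were filled with single sorted cells. Age within S phase wells was not tested, since 1 animal per age had at least 3 such wells. The nuclease and Sca-1-negative plates entered no test.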

Additional observations from a re-analysis of the deposited data

Results flagged for a closer look

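The same thresholds, applied to the plate of the nuclease test, which entered no comparison, found 5 S phase wells among 230 wells of at least 100 counts (2.17%, exact Clopper-Pearson 95% interval 0.710 to 5.00%), above the level that a count of 0 would allow. The plate has the postnatal day of P758, and the S phase share on that animal's old plates was 2.23% (14 of 627). The histone shares of the 5 wells ran from 3.73 to 22.4%, and 4 were over 4%. On the Sca-1-negative plate there were 0 of 52 (exact Clopper-Pearson 95% interval 0 to 6.85%).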

How the results depend on the processing

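The difference in the share of S phase wells between old and young animals stayed negative under every alternative run, from -0.918 points with wells thinned to 500 counts to -12.1 points with wells of at least 500 counts, where P59 had 1 S phase well of 3 (33.3%). It was -5.86 points (exact permutation p = 0.1, the smallest possible) with at least 3 histone counts, and ran without each animal in turn from -3.67 to -1.17 points. The difference in basal keratin wells ran from 10.1 to 16.8 points without each animal. Against other wells DESeq2 called 287 genes (245 higher and 42 lower) and the P758 plates alone 200 (121 and 79). Leaving out wells with 3 or more T cell list counts, which also removed 7 S phase wells, gave 593 with 186 lower. This step also lowered the S phase sums from 220450 to 144931 counts in P60 and from 31074 to 19408 in P758. The lower calls were 237 without a filter on low counts, 257 at a mean of 20 CPM or more and 688 with plates as the unit. Of the named called genes, 41 kept their call on the P758 plates alone, 42 lost it and 1, Sostdc1, changed sign. All calls that any alternative shared with the 924 had the same direction. Against G2 and mitosis wells DESeq2 called 4 genes (4 higher and 0 lower, with 28 at an unadjusted p under 0.05), and high members alone gave 16 (15 and 1). Without a filter 4 genes were lower. Leaving out 1 of the 2 animals leaves no residual degree of freedom, so single animals were fitted by plate instead. The alternatives to the age test within S phase wells were not run, since that test had too few animals.

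Some genes changed sign. Ccn1 had a log2 difference of -0.082 on the P60 plates, -0.22 without P758 and 2.33 without P60. Without the member that held Langerhans cell counts the difference was -5.23 for Cd74, -3.33 for H2-Aa, -3.84 for H2-Ab1 and -3.50 for H2-Eb1; Cd74 was at -4.74 on the P60 plates and -8.79 without T cell wells. Lor had 0.10 on the P60 plates, and Sostdc1 0.53 on the P758 plates with -2.58 without P758 and 0.86 without P60. Depth limits the S phase sum of P758 most, where 3 counts are 96.5 CPM. No paired analysis was possible because the old and young plates share no replicate number in the labels.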
